A study of Homo sapiens with 3 samples.

Results

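To describe where PHF13 sits at gene starts away from EZH2 and away from AP-1 sites, the PHF13 peaks of PANC-1 cells that met 3 conditions were examined. They shared no base with an EZH2 peak, their summit lay within 5000 bp of a transcription start site (TSS), and the 200 bp centred on the summit held no exact AP-1 site. The AP-1 site sought was the TPA-response element (TRE), TGACTCA or TGAGTCA. These conditions were met by 5775 of the 19039 PHF13 peaks, and the 5775 are called members here. Members were thus chosen by the peak calls of both antibodies, the place of the summit and the letters of the TRE, and these values are given as a description. Of all PHF13 peaks, 16809 shared no base with any of the 21639 EZH2 peaks, 6505 of those lay at gene starts, and 730 of the 6505 held a TRE and were set aside for comparison.

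The peaks came from chromatin immunoprecipitation followed by sequencing (ChIP-seq) in the human pancreatic carcinoma line PANC-1, labelled wildtype and with no treatment given. There was 1 library for a PHF13 antibody, 1 for an EZH2 antibody and 1 of input chromatin, prepared from cells fixed with EGS, which links proteins to each other, and then with formaldehyde. The PHF13 antibody was a rabbit polyclonal made for that work, and each immunoprecipitation started from a single culture plate. No group was replicated, so no p-value is given. Intervals are at 95% and cover counting error only.

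PHF13 is a chromatin protein with a PHD finger that reads histone H3 methylated at lysine 4, the mark of active and poised promoters. EZH2 is the methyltransferase of Polycomb repressive complex 2 and was used here only to leave peaks out. AP-1 is a dimer of FOS, JUN and ATF family proteins that binds the TRE, mostly at enhancers of growth and stress genes. Most human promoters of housekeeping genes lie in CpG islands, stretches rich in G, C and the CpG dinucleotide, where factors such as SP/KLF, ETS, NRF1, NFY, YY1 and USF bind.

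The members turned out to hold 2 kinds of sequence, which the windows printed below show. The 200 bp centred on the summit are given on the plus strand of GRCh37 (hg19), in lower case with the named motif in capitals, and all lie outside annotated exons. The 3 windows from CpG-rich gene starts show a USF-type E-box (CACGTGAC, here on the other strand), the ETS site CCGGAAGT and the GC box GGGGCGGGG of SP/KLF factors, respectively:
LAMP1, chr13:113951292-113951491: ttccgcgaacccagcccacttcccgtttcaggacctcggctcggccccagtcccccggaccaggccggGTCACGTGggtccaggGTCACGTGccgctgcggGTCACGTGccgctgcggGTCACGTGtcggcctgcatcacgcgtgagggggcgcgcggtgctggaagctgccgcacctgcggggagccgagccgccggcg
HOMER1, chr5:78810447-78810646: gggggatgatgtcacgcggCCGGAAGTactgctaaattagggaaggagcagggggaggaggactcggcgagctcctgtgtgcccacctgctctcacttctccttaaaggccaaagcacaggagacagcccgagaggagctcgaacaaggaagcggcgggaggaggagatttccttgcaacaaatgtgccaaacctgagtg
SKIL, chr3:170074798-170074997: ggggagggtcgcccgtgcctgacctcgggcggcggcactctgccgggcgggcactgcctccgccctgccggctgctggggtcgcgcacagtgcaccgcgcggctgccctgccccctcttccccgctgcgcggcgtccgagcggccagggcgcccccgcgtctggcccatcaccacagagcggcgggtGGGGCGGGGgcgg
The LAMP1 window held 4 copies of the E-box, the nearest with its centre 5 bp from the summit, whereas the other windows held 1 match each. The GC box of SKIL lay 91 bp from its summit and the ETS site of HOMER1 77 bp. A further 7 windows came from CpG-poor sequence. The MFSD2B window belongs to the strongest single-copy member whose nearest TSS is that of a protein-coding gene and holds none of the 6 motifs chosen for printing. The next 4 show the TEAD site ACATTCC, the FOX site TGTTTAC, the ETS site and the bare E-box CACGTG. They were chosen as strong single-copy members outside exons, though not always the strongest. For the FOX site a U6 RNA gene promoter was passed over. For the bare E-box the LAMP1 window above, which also holds it, was passed over. The last 2 show 7-bp words that differ from the TRE by 1 base, TGACTAA and TGAATCA:
MFSD2B, chr2:24238482-24238681: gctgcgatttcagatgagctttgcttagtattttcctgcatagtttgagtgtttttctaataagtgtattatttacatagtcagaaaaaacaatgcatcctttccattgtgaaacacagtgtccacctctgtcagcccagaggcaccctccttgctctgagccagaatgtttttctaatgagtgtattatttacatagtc
ENSG00000257849, chr12:43355261-43355460: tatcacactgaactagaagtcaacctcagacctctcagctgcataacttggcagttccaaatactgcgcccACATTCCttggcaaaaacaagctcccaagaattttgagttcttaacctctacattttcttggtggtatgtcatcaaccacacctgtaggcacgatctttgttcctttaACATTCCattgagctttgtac
AC007773.1, chr19:32864778-32864977: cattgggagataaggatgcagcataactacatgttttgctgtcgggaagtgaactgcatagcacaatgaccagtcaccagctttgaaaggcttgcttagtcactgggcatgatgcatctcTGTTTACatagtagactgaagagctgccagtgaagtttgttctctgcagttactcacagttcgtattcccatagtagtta
ENSG00000259177, chr15:90944193-90944392: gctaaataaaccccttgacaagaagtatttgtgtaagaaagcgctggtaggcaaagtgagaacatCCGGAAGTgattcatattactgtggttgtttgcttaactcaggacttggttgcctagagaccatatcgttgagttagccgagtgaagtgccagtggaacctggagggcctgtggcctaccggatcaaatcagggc
LINC01122, chr2:58861210-58861409: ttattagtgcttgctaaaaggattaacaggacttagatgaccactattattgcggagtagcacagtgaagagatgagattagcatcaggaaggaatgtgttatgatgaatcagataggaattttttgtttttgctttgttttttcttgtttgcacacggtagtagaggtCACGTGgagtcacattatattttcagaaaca
DRC3, chr17:17894365-17894564: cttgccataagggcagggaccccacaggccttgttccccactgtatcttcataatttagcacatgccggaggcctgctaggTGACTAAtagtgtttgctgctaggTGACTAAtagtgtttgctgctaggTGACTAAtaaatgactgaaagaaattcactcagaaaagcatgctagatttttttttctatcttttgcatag
ENSG00000225563, chr20:52422449-52422648: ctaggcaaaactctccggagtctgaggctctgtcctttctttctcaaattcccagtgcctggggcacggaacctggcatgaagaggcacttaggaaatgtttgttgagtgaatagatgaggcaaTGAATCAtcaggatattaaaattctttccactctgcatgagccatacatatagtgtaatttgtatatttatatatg
The DRC3 window carried 3 copies of TGACTAA and the ENSG00000257849 window 2 copies of the TEAD site. Motifs other than the named one were left in lower case. LINC01122 also holds TGAATCA and, on the other strand, the TEAD site. On the other strand, AC007773.1 also holds TGACTAA, and ENSG00000259177 holds TGAATCA overlapping its ETS site. A match is a string of letters in this window and does not show that the factor binds there. HOMER1, DRC3 and ENSG00000225563 were chosen for printing after their values were seen.

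To see how strong the members were, the values of the peak caller were read. The values in this paragraph chose the peaks, so they are a description. The median member was 186 bp wide, with a fold enrichment over local background of 3.33 (interval 3.30 to 3.35) and a −log10 q of 3.47. The summit of the median member was covered by 20 ChIP fragments over a background of 5.31, and member summits ranged from 13 to 287 fragments. A stricter q, with −log10 q of 5 or more, held for 23.4% of members and for 51.9% of the 730 gene-start peaks with a TRE, whose median summit held 25 fragments and had a fold enrichment of 3.78. Members were therefore weaker peaks than those with a TRE, and most of them rested on few fragments. The background stood at its genome-wide floor of 4.23 fragments at 15.9% of members. Among single-copy members this ran from 80.7% on chromosome 4 to 3.38% on chromosome 20. These chromosomes had 2.48 and 10.1 members per Mb of sequence within 5000 bp of a TSS. The gene shares and densities below were not corrected for such differences.

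Next, the position of the summits was compared with the sequence that was open to them. All bases within 5000 bp of any annotated TSS came to 770 Mb, 26.9% of the genome. Within this territory, members crowded towards the TSS. Their density was 36.5 summits per Mb within 100 bp of a TSS, 21.2 from there to 250 bp and 11.01 from there to 500 bp, and it stayed between 4.74 and 5.03 in every bin beyond 1000 bp. Summits within 500 bp were 4.18 times as dense as those beyond 1000 bp (interval 3.96 to 4.42). The same ratio was 2.06 (1.75 to 2.43) for gene-start peaks with a TRE and 2.53 (2.15 to 2.97) for the 766 gene-start peaks that shared bases with EZH2. The intervals of the members and of the other groups did not overlap.

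**Figure D1:**
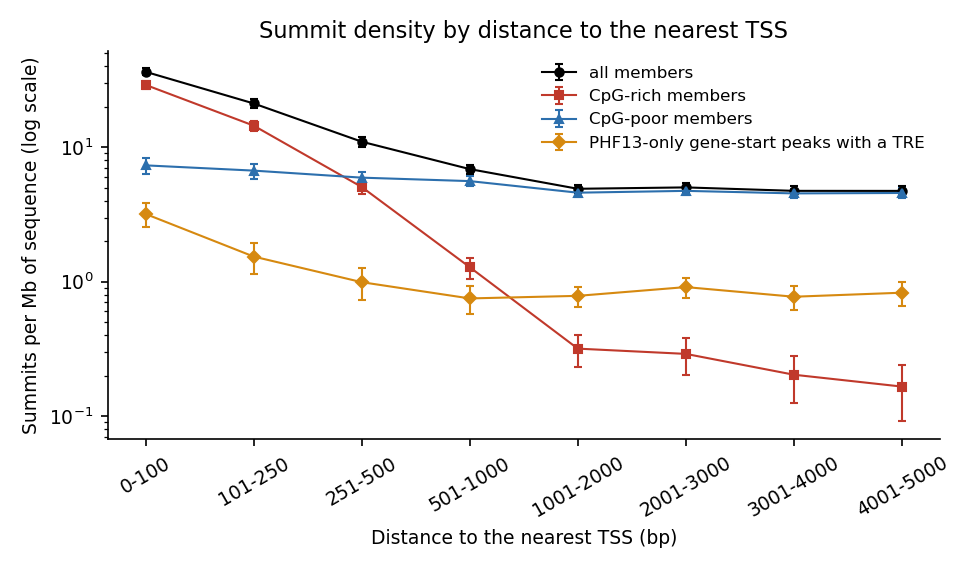
Density of peak summits (summits per Mb, log scale) in 8 bins of distance to the nearest TSS (bp), with 95% error bars from the counts (normal approximation), for all 5775 members, the 1903 CpG-rich and 3872 CpG-poor members, and the 730 PHF13-only gene-start peaks with a TRE. The CpG-rich line falls from 29.1 to 0.165 summits per Mb, while the CpG-poor line stays between 4.54 and 7.34.

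This gradient came almost wholly from one kind of member. The ratio of observed to expected CpG dinucleotides over 500 bp reached 0.6, a level typical of CpG islands, at 1903 members (33.0%, 31.8 to 34.2). These CpG-rich members had a median GC content of 66.8% and lay a median of 119 bp from the nearest TSS, with 71.9% within 250 bp. Their density within 500 bp of a TSS was 54.9 times that beyond 1000 bp (46.2 to 65.3). The other 3872, the CpG-poor members, had a median GC content of 46.8%, lay a median of 1825.5 bp from a TSS, and were only 1.41 times as dense near it (1.303 to 1.531). CpG-rich sequence itself is concentrated at gene starts, so this contrast describes the pair of kinds and was not set against the CpG-rich share of the territory.

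At CpG-rich gene starts the summits were not centred on the TSS. Of the 1369 CpG-rich members within 250 bp of a TSS, 554 (40.5%, 37.9 to 43.1) lay upstream, and the median position was 21 bp downstream (15 to 28). The fullest 50-bp bin held 275 summits and covered the first bases of the transcript, against 195 in the bin just upstream. The 454 CpG-poor members at the same distance were placed evenly, with 49.1% upstream and a median of 2 bp downstream (−17 to 23). In the territory within 250 bp of a TSS, 48.96% of bases were upstream. Over peaks at any distance, starts of transcripts on both strands within 1000 bp of the summit were found at 13.1% of CpG-rich members. They were found at 0.413% of CpG-poor members and at 0.685% of peaks with a TRE. Any TSS lay within 1000 bp of 92.6%, 33.8% and 37.4% of these groups, so they were not equally able to qualify.

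**Figure D2:**
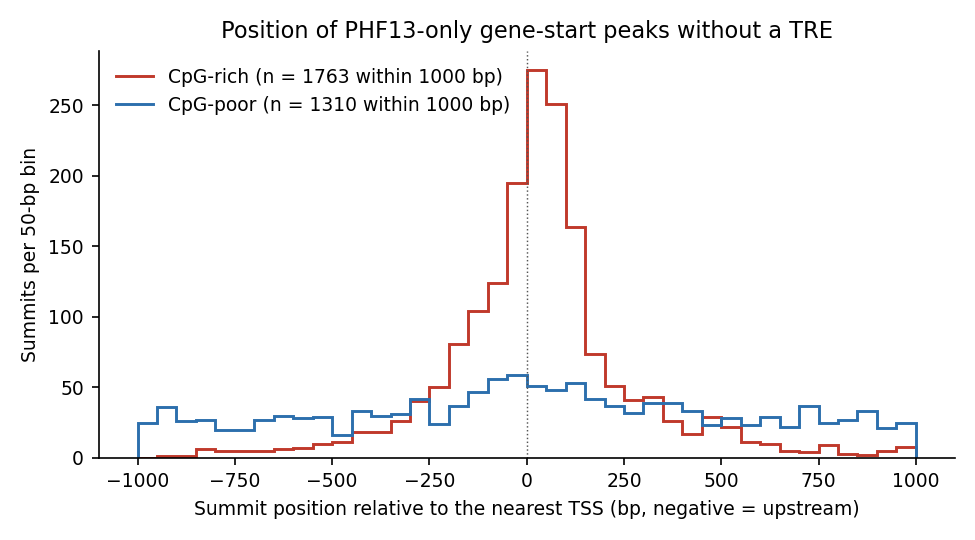
Number of member summits per 50-bp bin against position relative to the nearest TSS (bp, negative is upstream), for the 1763 CpG-rich and 1310 CpG-poor members within 1000 bp. The CpG-rich curve peaks at 275 summits just downstream of the TSS. The CpG-poor curve has a low hump around the TSS, over 16 to 42 summits in the bins beyond 150 bp. Its fullest bin, with 59 summits, lies just upstream.

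The annotation at the summit differed in the same way. CpG-rich summits lay in exons in 53.4% of cases, with 26.9% of all CpG-rich summits in untranslated and 13.6% in coding sequence. CpG-poor summits lay in introns in 58.8% and in exons in 16.9%. The nearest TSS belonged to a protein-coding gene for 80.0% of CpG-rich and 46.9% of CpG-poor members, and to a processed pseudogene for 1.05% and 11.2%. Exons took 1670 of all member summits (28.9%), introns 2843 (49.2%) and the space between genes 1262 (21.9%), where 14.1% of the bases of the territory are exonic. Within 250 bp of a TSS, where most CpG-rich members lay, 47.9% of bases are exonic. The sequence at the summit occurred more than once in the genome, by the median count of its 24-mers, at 1466 members (25.4%, 24.3 to 26.5) and once at 4308, and 1 member could not be read. Multi-copy sequence made up 32.1% of CpG-poor and 11.7% of CpG-rich members. Reads from such sequence may not be placed with certainty, so these positions are less sure. The placement of the reads was not examined here.

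To see what the absence of a TRE goes with, members were compared with the 730 peaks that met the other conditions and held one. A CpG-rich summit was found at 9.04% of peaks with a TRE, 23.9 percentage points below members (21.3 to 26.1). The share in exons was 13.6 points higher in members (10.6 to 16.3), the share in coding sequence 5.52 points higher (4.23 to 6.45) and the share within 250 bp of a TSS 11.3 points higher (8.003 to 14.3). The nearest TSS was that of a long non-coding RNA gene at 20.5% of members and 28.6% of peaks with a TRE, a difference of −8.13 points (−11.7 to −4.79). Multi-copy sequence was also more common in members, by 17.0 points (14.5 to 19.2). Summits between genes took 21.9% and 22.3%, and the interval of that difference (−3.81 to 2.59 points) held 0. The rule split these peaks by a word without CpG in the same sequence, so part of the difference in CpG content is built in. At gene starts, words 1 base away from the TRE outside its centre were in 22.3% of CpG-rich and 41.9% of CpG-poor windows. Peak strength moved with the TRE as well, and its part in these differences was not tested. In the 766 gene-start peaks that shared bases with EZH2, 70.6% were multi-copy and 28.6% CpG-rich. In PHF13-only peaks farther than 5000 bp from a TSS and without a TRE, the shares were 33.3% and 2.73%. Members were thus less often multi-copy than either group, and their CpG-rich share was 4.36 points above that of the shared peaks (0.850 to 7.68).

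To find sequence that the rule had not used, 29 motifs were counted on both strands in the 200 bp at each summit and in windows of the same length centred 1000 bp to each side. The ratio of the shares is called the summit to flank ratio. In CpG-rich members, 9 motifs had an interval above 1, 8 had one below 1 and 12 had neither. ETS sites (CCGGAAGT) were in 50 windows (2.63%) with a ratio of 12.5 (5.94 to 26.3), USF-type E-boxes (CACGTGAC) in 43 (2.26%) with a ratio of 8.60 (4.33 to 17.1), and GC boxes in 138 (7.25%) with a ratio of 2.91 (2.25 to 3.75). The YY1 site AAGATGGCG was in 32 summit windows and in 1 flank window of 3806, a ratio of 64.0 with an interval from 8.75 to 468. These ratios depend on the flank: with flanks at 500 and 2000 bp they were 4.92 and 10.7 for YY1, 2.94 and 25 for ETS, and 3.44 and 10.75 for the USF-type E-box. The CGCG palindrome CTCGCGAG, known from ZBTB33 binding, was in 18 windows (ratio 18.0, 4.18 to 77.5), and the CRE (TGACGTCA), bound by ATF and CREB proteins, in 14 (ratio 4.67, 1.80 to 12.1). In the same windows TATA boxes (TATAAA) had a ratio of 0.192, GATA sites (AGATAAG) 0.330 and TGAATCA 0.405.

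Base composition differed between these summits and their flanks. CpG-rich summit windows had a mean GC content of 67.1% and their flanks 48.2%. Of the 4548 8-bp words counted, 45.1% had a ratio of at least 3, nearly all with a CpG. Words had to be in at least 20 summit windows, with no limit for the flanks, so this share is biased upwards. Because of the difference in composition, the 1369 CpG-rich members within 250 bp of a TSS were also compared with promoters. Windows of 200 bp centred on their own TSSs held more matches than the summit windows for ETS (5.55% against 3.36%, summit minus TSS −2.19 points, −3.77 to −0.646), GC boxes (13.002% against 7.89%) and the NFY box AGCCAAT (3.29% against 1.53%, −2.96 to −0.607 points). These windows overlap in part, so their errors are not independent. At all 12227 CpG-rich starts of protein-coding genes the GC box was in 23.6%, the NFY box in 6.94% and the NRF1 core GCGCATGC in 4.50% of windows. The TSSs with a member fell short of these by 10.6 points for the GC box (own minus all −12.4 to −8.55), by 3.65 for NFY (−4.59 to −2.48) and by 1.94 for NRF1 (−2.75 to −0.902). ETS sites (7.01% of all CpG-rich starts, own minus all −2.65 to −0.0455 points) and the CRE (1.61% against 2.71%, −1.72 to −0.241) were also rarer at these TSSs, although both stood above the flanks. The TSSs with a member exceeded all CpG-rich starts by 1.55 points for the bare E-box (0.102 to 3.22), by 0.817 for the CGCG palindrome and by 0.764 for TEAD. For YY1 the difference of 0.203 points had an interval that held 0 (−0.690 to 1.34). The 2 sets of starts were not alike: the members' own TSSs were the nearest of any gene type and transcript, with the CpG class read at the summit, whereas the reference took 1 start per protein-coding gene, with the class read at the start.

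**Figure D3:**
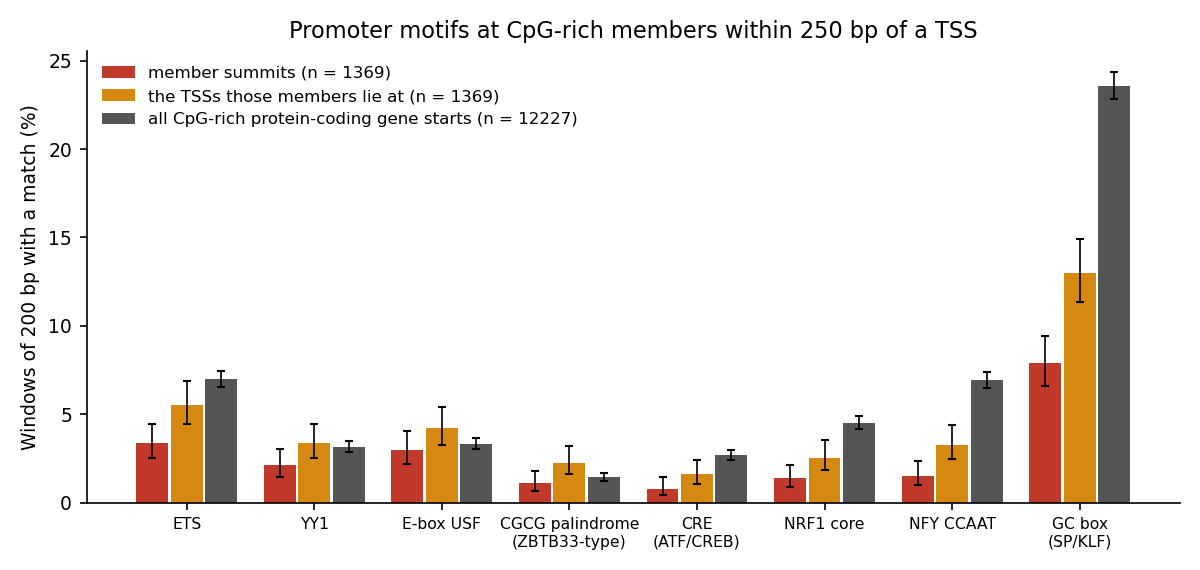
Percent of 200-bp windows with each of 8 promoter motifs, with 95% Wilson error bars, at the summits of the 1369 CpG-rich members within 250 bp of a TSS, at those TSSs, and at 12227 CpG-rich protein-coding gene starts. The GC box falls from 23.6% at all starts to 13.002% at starts with a member and 7.89% at the summits.

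Around CpG-rich summits the promoter motifs formed a hump with a dip in its middle. In 100-bp bins, the GC box stood at 37.8 sites per 1000 windows in the central bin, 73.6 and 67.8 in the bins on either side and 86.2 and 88.3 at 200 bp to either side. ETS sites stood at 9.98 in the centre against 19.97 on both sides, and YY1 sites at 4.73 against 9.46 and 11.04. The USF-type E-box was the exception among the 4 motifs drawn, with its highest bin, 19.4, at the centre. The central counts are small (19 ETS and 37 USF sites), and no test of the dip was made.

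**Figure D4:**
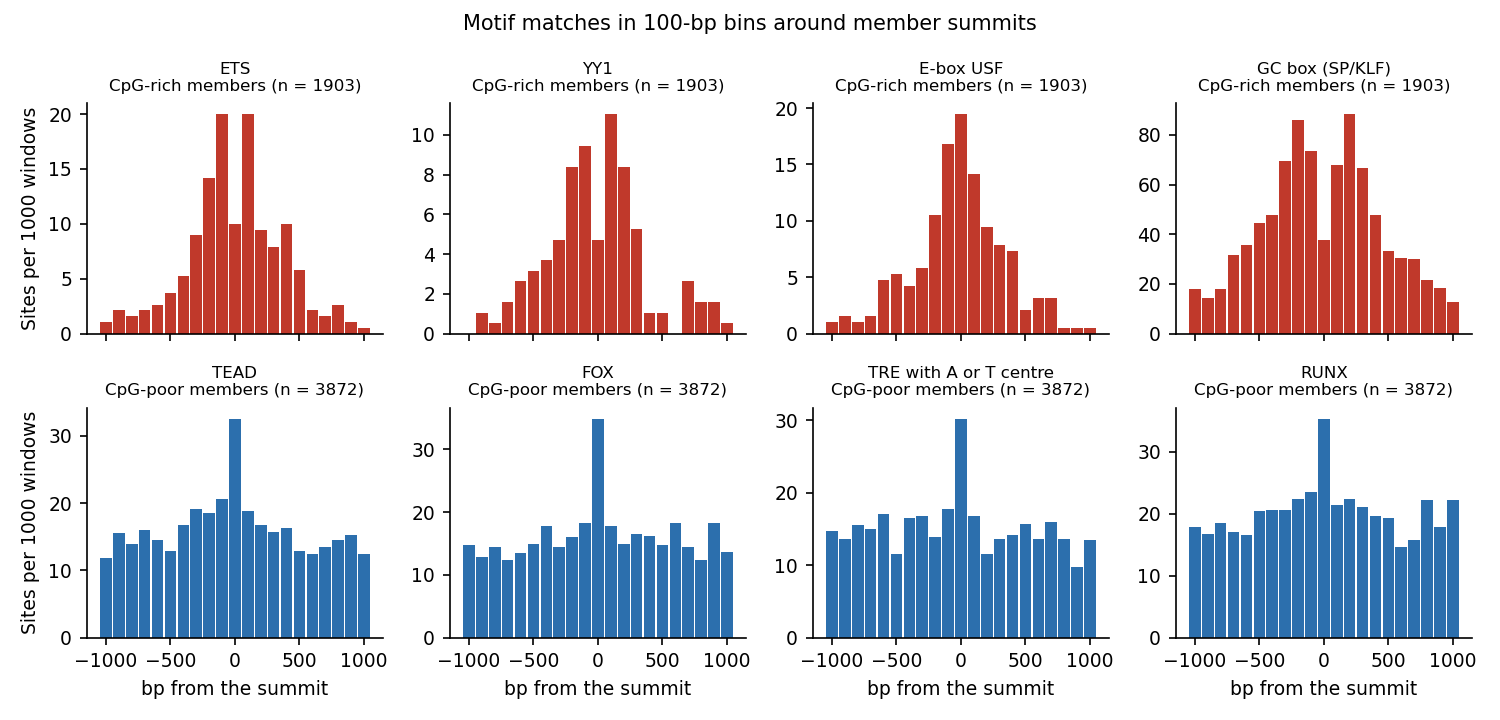
Motif matches per 1000 windows in 100-bp bins from 1000 bp upstream to 1000 bp downstream of the summit, for 4 motifs in the 1903 CpG-rich members (top, red) and 4 in the 3872 CpG-poor members (bottom, blue). The CpG-poor motifs peak in the central bin, whereas ETS, YY1 and GC boxes dip there.

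Judged against the flanks, CpG-poor members showed other motifs, apart from the bare E-box. Its interval lay above 1 in both kinds (ratio 2.34 in CpG-rich and 1.27 in CpG-poor members, 1.0002 to 1.61 in the latter). TEAD sites (ACATTCC), bound by the partners of YAP and TAZ, were in 191 windows (4.93%) with a summit to flank ratio of 1.99 (1.63 to 2.42). FOX sites (TGTTTAC), bound by forkhead factors, were in 189 (4.88%, ratio 1.72, 1.42 to 2.08) and RUNX sites (TGTGGTT) in 210 (5.42%, ratio 1.51, 1.26 to 1.79). STAT sites (TTCCNGGAA) were in 31 windows (ratio 2.14, 1.29 to 3.54). Of the 29 motifs, 7 had an interval above 1 in CpG-poor members, 1 (the TATA box) had one below 1 and 21 had neither. The central 100-bp bin held 32.5 TEAD sites per 1000 windows, against 20.7 and 18.9 beside it, and 34.9 FOX sites against 18.3 and 17.8. Among members with a −log10 q of at least 5 the ratio was 3.86 for TEAD (2.71 to 5.51) and 3.43 for FOX (2.41 to 4.89). TEAD sites were in 2.85% and FOX sites in 2.07% of the windows at CpG-poor starts of protein-coding genes, 2.09 and 2.81 points below the members (1.34 to 2.89, and 2.10 to 3.595).

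The same motifs were then counted in PHF13-only peaks far from gene starts. In CpG-poor peaks farther than 5000 bp from a TSS and without a TRE, TEAD sites were in 4.87% and FOX sites in 4.34% of windows, and the intervals of the differences to members (−0.730 to 0.910 and −0.237 to 1.37 points) held 0. Beside a TRE, FOX sites were more common. Among single-copy CpG-poor peaks at gene starts, 8.91% of those with a TRE and 6.01% of members held one, a difference of −2.90 points (−5.57 to −0.658), whereas TEAD sites were in 6.27% and 6.39% (difference 0.122, −2.26 to 2.07).

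The rule removed the exact TRE but not words 1 base away from it. As a class, the 7-bp words with 1 mismatch outside the centre base were in 49.4% of CpG-poor windows, with a ratio of 1.09 (1.04 to 1.13). In single-copy CpG-poor members the ratio was 1.01 (0.965 to 1.07). The class was in 23.3% of CpG-rich windows, with a ratio of 0.560. TGAATCA, which differs at the centre base, is not part of the class. Counted singly, the words of the class and TGAATCA came to 19. In single-copy CpG-poor members, 6 of the 19 words had an interval above 1, 3 had one below 1 and 10 had neither. TGACTAA was in 127 windows (4.83%, ratio 2.08, 1.63 to 2.66), TGAATCA in 142 (5.40%, ratio 1.91, 1.52 to 2.39) and TGACCCA in 95 (ratio 1.61, 1.23 to 2.10). At a −log10 q of at least 5, TGAATCA reached a ratio of 3.45 (2.36 to 5.05) in CpG-poor members. When 8-bp words in at least 20 summit windows were counted in CpG-poor members, only 11 of 14064 (0.0782%) had a ratio of at least 3. That limit was set on summit windows alone, which favours high ratios. The highest of the 11 was AGGCTTCG (20 windows, 4.44, 2.03 to 9.75), and 5 of the 11 held a CpG. Also on the list were CTTAGTCA (50 windows, 4.17, 2.56 to 6.77) and GTGATTCA (54 windows, 3.48, 2.24 to 5.41), picked out here for their likeness to the TRE. On the other strand these contain TGACTAA and TGAATCA. The 200-bp limit also left 257 members (4.45%) with a TRE outside that window but within 400 bp.

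To name the strongest members, the single-copy members whose nearest TSS was that of a protein-coding gene were ranked by q, which is again a description. MFSD2B, a sphingolipid transporter gene, led with a −log10 q of 29.4 and 52 fragments over 5.21, at an intronic summit at −1778 bp from a TSS, where a minus sign stands for upstream (peak chr2:24238475-24238715). PLEKHH2 followed with 28.7, at −2270 bp and between genes. The TXNRD2 peak (27.3) lay at 29 bp from a TSS of this mitochondrial thioredoxin reductase gene, in an untranslated exon. DRC3, a gene of the ciliary dynein regulatory complex, had 26.6, and AOPEP, an aminopeptidase gene, 24.2. CUL3, the scaffold of a family of ubiquitin ligases, had 23.96 at −91 bp from an internal TSS. LAMP1, a lysosomal membrane protein gene, had 20.96 at −162 bp from a TSS and was the only CpG-rich member of the 10 (CpG ratio 1.08). SYNPO (20.8), an actin-associated gene, HDAC9 (19.8), a histone deacetylase gene, and CCL20 (19.5), a chemokine gene, completed the list. Fold enrichment in these 10 ran from 5.68 to 8.56.

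Counted by gene, a member lay within 5000 bp of a TSS of 3700 out of the 20163 protein-coding ones (18.4%). The share was 21.7% among the 14761 genes with a CpG-rich start and 9.07% among the 5402 without. Most of the 3700 genes, 3119, had 1 member, 511 had 2, 52 had 3, 15 had 4, 2 had 5 and 1 had 6.

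To see which processes these genes serve, 14 gene lists were read against these shares and against the density of members per Mb of territory around the genes' own TSSs, 8.97 over all protein-coding genes. Over protein-coding genes with a CpG-rich start the density was 9.53. The number of annotated TSSs sets how much territory a gene has, from a median of 11.5 kb in the list of MAPK feedback genes to 33.2 kb in the actin list, so the shares and the densities order the lists differently. A short territory also has a larger part close to a TSS, where members were densest, and the densities were not corrected for this. MAPK feedback and immediate-early genes, which are switched on within minutes of growth factor signalling or hold it back, stood high by both measures, with 16 of 40 (40.0%, 26.3 to 55.4) and 33.1 members per Mb. All 40 had a CpG-rich start. DUSP6, the phosphatase that switches off ERK, had its member at −126 bp from a TSS (−log10 q 11.97, 38 fragments over 7.13), IER3 had one at 7.94 and DUSP1, another MAPK phosphatase, one at 6.72. ZFP36, which binds and destabilises mRNA, had one at 11.1 over a background of 84.3 fragments, which is taken up below. The lowest of the 16 was KLF6 at 2.07.

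YAP and TEAD target genes, which respond to Hippo signalling and cell tension, had a member in 13 of 30 (43.3%, 27.4 to 60.8) and 23.9 members per Mb. ANKRD1, a classic YAP target, had 1 member, at −288 bp from a TSS (−log10 q 15.1, 37 fragments over 5.37). CRIM1 had 4 members with a strongest value of 15.0, ASAP1 had 4 (8.74) and AMOTL2, which binds YAP, had 2 (8.05). CCN1 and CCN2, secreted matrix proteins, had 5.60 and 3.78, and YAP1 itself reached 1.93.

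Ribosomal protein genes had a member in 21 of 77 (27.3%, 18.6 to 38.1), near the 21.7% of genes with CpG-rich starts, but in a short territory, which gave 25.9 members per Mb. The median position of their members was 23 bp downstream of a TSS. RPS12 (7.51), RPS7 (7.05) and RPL36 (6.56) were among the highest, and RPS16 (7.90) had a background of 74.8 fragments. Genes of the actin cytoskeleton and focal adhesions had a member in 27 of 65 (41.5%, 30.4 to 53.7) but 12.9 per Mb, with ANXA2 (12.3), MYL12B (9.51), ITGA2 (6.47) and LIMA1 (6.34) in front. Of AP-1 and ATF/CREB subunits 10 of 31 had a member (32.3%, 18.6 to 49.9, and 14.1 per Mb). They were led by NFE2L2 (8.66), a regulator of the oxidative stress response, FOSB (8.18), FOSL1 (5.88) and ATF7 (5.84).

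**Figure D5:**
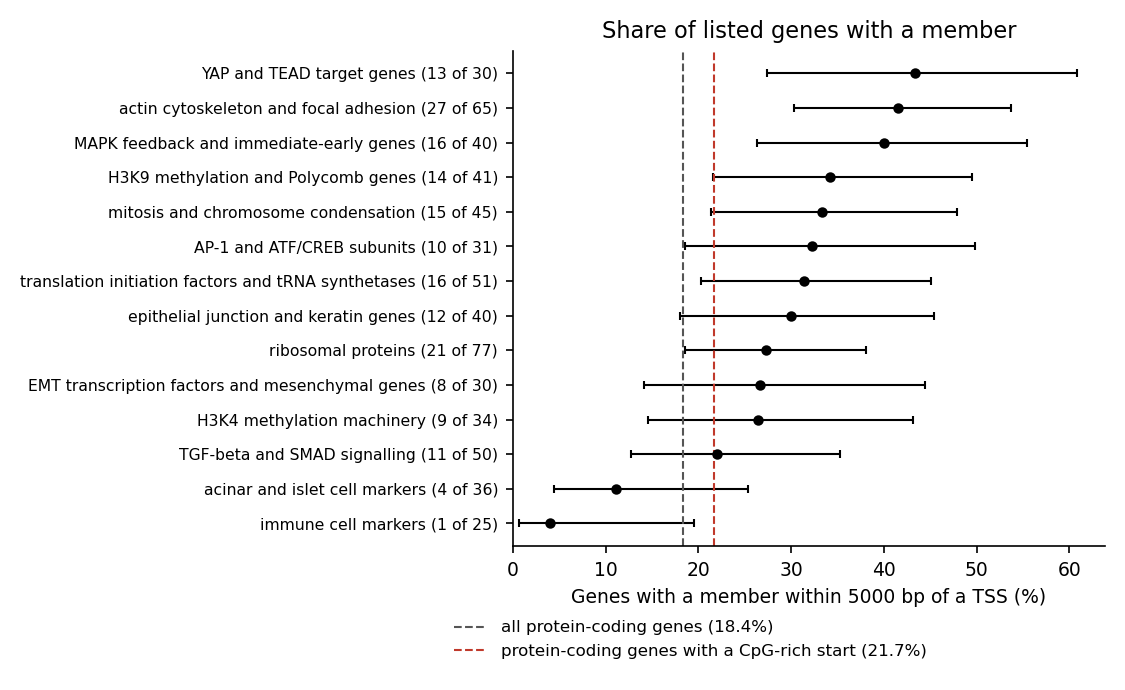
Percent of the genes of 14 lists with a member within 5000 bp of a TSS, with 95% Wilson error bars, and dashed lines at the share of all protein-coding genes (18.4%) and of those with a CpG-rich start (21.7%). YAP and TEAD targets (43.3%) stand at the top and immune cell markers (4.00%) at the bottom, and most intervals are wide.

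The lists of the epithelial to mesenchymal transition stood closer to the background. TGF-beta and SMAD genes had a member in 11 of 50 (22.0%, 12.8 to 35.2, and 8.39 per Mb). SKIL, a SMAD corepressor, had 7.85, the cytokine gene GDF15 6.47, the SMAD target ID1 6.42 and the receptor gene ACVR1 5.03, whereas TGFBR2 and SMAD7 had 2.90 and 2.81. EMT transcription factors and mesenchymal genes had one in 8 of 30 (26.7%, and 9.04 per Mb), with the protease genes PLAU (7.14) and MMP2 (5.18), the transcription factor SOX4 (4.38) and FN1 (3.48), which encodes fibronectin. Epithelial junction and keratin genes had one in 12 of 40 (30%, and 10.4 per Mb), led by the catenin gene CTNND1 (10.9), the protease gene ST14 (7.97), and the junction genes OCLN (6.66) and PKP3 (6.29).

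Among genes of chromatin and of growth, mitosis and chromosome condensation genes had a member in 15 of 45 (33.3%, and 15.0 per Mb), translation factors and tRNA synthetases in 16 of 51 (31.4%, and 14.2), H3K9 methylation and Polycomb genes in 14 of 41 (34.1%, and 11.7) and H3K4 methylation genes in 9 of 34 (26.5%, and 10.3). KMT2A, an H3K4 methyltransferase gene, had the strongest of these, at −97 bp from a TSS (−log10 q 19.2, 52 fragments over 8.71), followed by EIF3B (14.4), a translation initiation factor gene with 3 members, of which the strongest lies in multi-copy sequence. PAXIP1 (8.52), PHF23 (7.02) and KMT2E (6.65) came next in the H3K4 list. CDC25C (7.11), NUSAP1 (6.42), ECT2 (5.90) and SMC1A (5.32) led the mitosis list, and QARS1 (6.42), KARS1 (5.999) and EIF4A2 (5.60) followed EIF3B. EED (5.77), BMI1 (5.32), JARID2 (5.11) and CBX8 (4.53) led the Polycomb list.

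Markers of other cell types had the lowest shares, and fewer of them had a CpG-rich start. Such a start was found at 14 of the 36 acinar and islet genes and 7 of the 25 immune genes. Among all protein-coding genes without one, 9.07% had a member. Acinar and islet markers had one in 4 of 36 (11.1%, 4.41 to 25.3), at CELA3B (7.40), CELA3A (4.596), CTRB1 (2.79) and CTRC (2.30), which encode digestive proteases of acinar cells, and none of the 14 with a CpG-rich start had a member. In territory this came to 10.1 members per Mb, near the 8.97 of all protein-coding genes. The peaks at CELA3A and CELA3B, which are near-identical neighbours, lie in multi-copy sequence, so their placing may be uncertain. Immune markers had one in 1 of 25 (4.00%, 0.710 to 19.5), at CD8A (2.78), or 1.97 per Mb. No list was tested, since there is 1 library.

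Small nuclear RNA genes held the extreme of the set. The strongest of all members lay at −128 bp from the TSS of RNU6-1, a gene for the spliceosomal U6 RNA that is transcribed by RNA polymerase III, with a −log10 q of 277, a fold enrichment of 23.5 and 287 fragments over 11.3 (peak chr15:68132328-68132683). Reads were not used here, so whether all of these fragments came from the chromosomal locus was not tested. Of the 5 U6 genes RNU6-1, RNU6-2, RNU6-7, RNU6-8 and RNU6-9, only the first had a PHF13 peak within 500 bp. Other U6 copies had far lower values, with −log10 q of 10.03 at RNU6-833P (multi-copy), 2.48 at RNU6-411P and 2.07 at RNU6-1266P. In all, 31 members had their nearest TSS at an snRNA or snoRNA gene within 250 bp, 23 of them at snRNA and 8 at snoRNA genes, and 15 of the 31 were multi-copy. The U1 family had 13, with −log10 q from 1.67 to 16.9, of which 9 were multi-copy. A stronger single-copy member lay farther out, at 610 bp from the TSS of RNU1-2 (−log10 q 39.1, 76 fragments). Of the 1914 annotated snRNA genes, 1.20% had a member within 250 bp, and of the 1458 snoRNA genes 0.617%. The share was 7.74% for protein-coding and 2.16% for long non-coding RNA genes. No share was computed for the U1 family.

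Several members stood on a very high background. At 45 members (0.779%) the local background at the summit was at least 30 fragments, where the genome-wide floor was 4.23. Of these, 33 were on chromosome 19, 5 at RNA5S genes of the 5S rRNA array on chromosome 1 and 7 elsewhere. A stretch of 0.966 Mb, chr19:39881310-40847119, held 28 members, all over a background of 49.6 to 89.6 fragments (median 65.2), although 25 of them were single-copy. The density there was 29.0 members per Mb of sequence. Their fold enrichment was low, from 1.56 to 2.25 (median 1.83), and their summits held 89 to 167 fragments. The members at ZFP36, RPS16, SUPT5H and AKT2 (a survival kinase gene) lie in this stretch, so their q values rest on high coverage and small folds. Copy number in these cells was not analysed here, and the part of the high background in these calls was not tested. The limit of 30 fragments and the stretch were chosen after the values were seen.

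The protein-coding genes with most members were also partly of this kind. FRG1 had 6 members, 3 of them multi-copy, and its strongest (−log10 q 13.4) lay 102 bp from an EZH2 peak. SUPT5H, an elongation factor gene in the chromosome 19 stretch, had 5, and NOTCH2, which has near-identical copies on chromosome 1, had 5, all multi-copy. HDAC9 and CRIM1 had 4 each, all single-copy, and were the ones with the strongest peak among 15 genes with 4. HDAC9 has 31 annotated TSSs and SUPT5H 19, which widens the territory in which a member can be counted.

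Finally, the members next to each limit of the rule were listed. The farthest from a TSS was 4996 bp away, at PGBD1, and the nearest peak outside lay at 5003 bp, at MTCL1. The member closest to an EZH2 peak, at ENSG00000287338, directly adjoined one, while the peak at DEF6 was left out for sharing 2 bases with one. The nearest TRE centre was 97 bp from a member summit, at UQCRBP2, and 96 bp from that of the excluded TXNRD1 peak. The weakest member, at FAM81A, had a −log10 q of 1.31. The median member lay 42351 bp from the nearest EZH2 peak.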

How the data were processed

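PHF13 ChIP-seq peaks of PANC-1 cells were taken as the authors deposited them. Per the labels and the methods, reads were trimmed with Trim Galore (0.4.1), aligned to hg19 with Bowtie2 (2.4.1, default settings), freed of duplicates with Picard, and peaks were called with MACS2 (2.2.7.1) for each antibody against the input. The deposited fold enrichment is a ratio of ChIP to local background at the summit, p and q values are deposited on the −log10 scale, and the deposited score is a whole-number form of −log10 q. The weakest −log10 q is 1.3 in both lists, looser than the limit stated for PHF13, and the EZH2 list is in narrow format although broad calling is described; both were used as deposited. The input and the reads were not analysed here, so total depth is unknown, and the depth behind a peak is its fragment pileup. Pileup and background were solved from fold enrichment and p (relative tolerance 0.0001), with 1 solution for every peak (100%).

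TSSs were those of GENCODE release 44 mapped to GRCh37, and exon, intron and intergenic were assigned by the summit, exon first. GC and CpG ratio were taken over 500 bp at the summit, and copy number from 24-mers in 100 bp. Motifs were sought on both strands in 200 bp. The 29 were the TRE with 1 mismatch outside its centre base, the TRE with A or T centre (TGAATCA), CRE (TGACGTCA), ETS (CCGGAAGT), NRF1 (GCGCATGC), GC box (GGGGCGGGG), CACCC box (CCACACCC), NFY (AGCCAAT), YY1 (AAGATGGCG), E-box (CACGTG), USF E-box (CACGTGAC), CGCG palindrome (CTCGCGAG), TEAD (ACATTCC), RUNX (TGTGGTT), CEBP (TTGCGCAA), FOX (TGTTTAC), the GATA-factor site (AGATAAG), SMAD (GTCTAGAC), STAT (TTCCNGGAA), CARE (TGATGCAA), E2F (TTTCCCGC), ZNF143 (ACTACAAT), RFX (GTTGCCAT), the TATA box (TATAAA), and, given by name only, HNF1, NF-kB, the CA repeat, the CTCF core and the CArG box. The USF E-box is a kind of E-box. TGAATCA differs from the TRE at the centre base and is not part of the 1-mismatch class. A word of 8 bp was counted when it was in at least 20 summit windows. Intervals at 95% are Wilson for shares, Newcombe for differences, order statistics for medians and log-scale normal for ratios, and cover counting error only. The analysis used Python 3.11.15 with numpy 2.4.6, pandas 2.3.3, scipy 1.17.1 and matplotlib 3.10.9, and the functions were tested on simulated data.

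Named genes were the 10 strongest single-copy members at protein-coding genes, up to 4 per list by −log10 q, the 5 genes with most members, and the neighbours of each limit; others named in the lists (KLF6, CCN1, CCN2, YAP1, TGFBR2, SMAD7, AKT2) were chosen after their values were seen. Printed windows were those of the strongest single-copy member outside exons and chromosome 8 for each of 6 motifs (ETS, USF E-box, GC box, E-box, TEAD and FOX), with the others as stated. The U6 promoter was passed over for the FOX site, and its sequence is not printed. LAMP1, printed for the USF E-box, was passed over for the bare E-box. One further window is not reported here. Members, motifs and gene lists were chosen with earlier results of these data known. The CpG-rich split, the comparison with own TSSs, single TRE words, 8-bp words, territory per list, high-background members and flanks at 500 and 2000 bp were chosen after the data were seen.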

Additional observations from a re-analysis of the deposited data

How the results depend on the processing

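No paired analysis was possible because there is 1 library per antibody and no result comes from a test across samples. The position, composition and motif results were recomputed with other TSS sets, distances, peak limits and flanks. Of 75 alternatives for the main values, 35 stayed within the interval of the main value, 39 moved beyond it and 1 turned its direction. For the number of members a wide band, 3850 to 8662.5, stood in place of a counting interval. Of 67 for single motifs, 55 stayed and 12 moved, none with a change of direction.

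With TSSs within 1000 bp only, the values were 3073 members, a median GC of 60.2%, 57.4% CpG-rich, 45.7% in exons, 16.3% multi-copy, 12.1% of protein-coding genes and a ratio of 0.755 for the 1-mismatch TRE class (0.92 in the main count); the density ratio cannot be computed there. With TSSs of protein-coding genes only, they were 3698 members, a density ratio of 6.02, GC 56.4%, CpG-rich 45.4%, exons 36.0%, multi-copy 16.2% and 1-mismatch ratio 0.851. With 1 start per gene, density was 5.52, GC 53.6%, CpG-rich 40.2%, exons 31.7%, genes 12.7% and 1-mismatch 0.875. At −log10 q of at least 3 there were 3440 members, density 4.64, CpG-rich 36.7% and genes 11.7%. At 5 there were 1354 members, density 5.25, GC 52.8%, CpG-rich 39.7%, multi-copy 26.7% and genes 4.85%. In single-copy peaks only, density was 5.73, GC 54.0%, CpG-rich 39.0%, exons 33.1%, multi-copy 0% by construction, genes 16.0% and 1-mismatch 0.835. Without a TRE in 400 bp, genes were 17.7%, and with no EZH2 peak within 1000 bp, multi-copy was 23.8%. The 1-mismatch ratio turned to 1.01 (0.970 to 1.05) with flanks at 500 bp, so its direction over all members depends on the flank. The CRE ratio over all members was 2.80 and ran from 1.5 with flanks at 500 bp (0.853 to 2.64) to 4.2 with flanks at 2000 bp. The ratios of ETS, USF and YY1 in CpG-rich members fell to 2.94, 3.44 and 4.92 with flanks at 500 bp. Causes of these shifts were not tested. The low pileup of most summits and the single library limit how far any weak peak can be relied on.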
